A study of Rattus norvegicus with 12 samples.

Results

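The genes of fatty acid synthesis, desaturation and elongation examined here were Acly, Me1, Scd, Scd2, Elovl7, Fads1, Fads2 and Fads3, 8 of the 30562 genes in the count tables of primary rat oligodendrocyte precursor cell (OPC) cultures. They were identified by a numeric match between the counts and the study's supplementary list of genes that it had called in CTK-2 versus CTL, and Scd, Scd2 and the 3 Fads genes by their coordinates as well. Since all 8 genes are in that list, their difference in that comparison is given as a description without a test. All 8 passed the filter on low counts, a mean of at least 5 counts over the 12 libraries.

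The RNA came from cultures of wild-type rat cortex, labelled as postnatal day 2 and pooled from males and females, and every culture was in differentiating medium. CTL cultures carried no cytokines and no galinex. GAL cultures received 10 nM of galinex, which activates the receptor GPR17. CTK-2 cultures received a cocktail of 2 ng/mL each of IFN-γ, TNF-α and IL-1β, 6 h before the time point of galinex or vehicle. CTK2+GAL cultures received the same cytokines and, 6 h later, galinex. RNA was taken 24 h after galinex, from 3 replicates in each of the 4 groups. The vehicle was DMSO per the design text, while the labels of the CTL samples name no treatment. The sources used here do not say whether replicates came from separate preparations of animals, so p-values measure only the spread between these libraries, which may be technical.

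A cell makes fatty acids from acetyl-CoA, which is cut from citrate in the cytosol, with reducing power from NADPH. Desaturases then introduce double bonds into the chains and elongases lengthen them. Differentiating oligodendrocytes draw on this pathway for myelin, a membrane that is rich in lipid, and the SREBP transcription factors are known activators of many of its genes.

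The library totals lay between 2600797 counts (GAL replicate 1) and 8978185 counts (CTK2+GAL replicate 3), with group medians from 5329374 to 5908813. CTL replicate 3 and GAL replicate 3 stood apart from the other libraries without cytokines. The summed level of 4 microglial markers with a symbol (P2ry12, Csf1r, C1qc and Ptprc) was 9.71 and 10.5 CPM in these libraries and 2.23 to 4.37 CPM in the other CTL and GAL libraries. The interferon-induced chemokine gene Cxcl10 had 4 and 3 counts in these libraries and 0 in the other CTL and GAL libraries, against 838 or more in each library with cytokines. CPM are counts scaled to the library size after normalization. The markers Mag and Ugt8 of oligodendrocytes and Pdgfra, Cspg4 and Ptprz1 of OPCs were present in every library, while other defining markers such as Mbp and Olig2 have no symbol here and were not analysed here.

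With galinex present on both sides of the comparison, the RNA of most of these 8 genes was lower with cytokines. In CTK2+GAL versus GAL, 7 of the 8 genes were called lower (quasi-likelihood test of edgeR, Benjamini-Hochberg adjusted p no higher than 0.05 over 13348 genes, and a log2 fold change of 0.59 or more in size), against 5.74% of all genes tested. The eighth, Elovl7, missed both thresholds. For all 8 genes every CTK2+GAL library lay below every GAL library, as in 24.0% of all genes tested. The median log2 fold change of the 8 genes was -0.80, beside 0.01 over all genes tested. The 8 genes were chosen from those called in CTK-2 versus CTL, and cytokines are compared here as well. The counts were therefore likely to be high, and the values of all genes, which were not so chosen, are no like baseline. With CTL replicate 3 and GAL replicate 3 left out, 7 of 8 were again called. The sections that follow take the genes in the order of the pathway, with the libraries of a group in the order of their replicate numbers. Where they say that libraries with and without cytokines were apart, the part from CTK-2 and CTL had been fixed by the choice of genes. In bulk samples fewer cells of a type and less RNA per cell cannot be told apart.

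**Figure D1:**
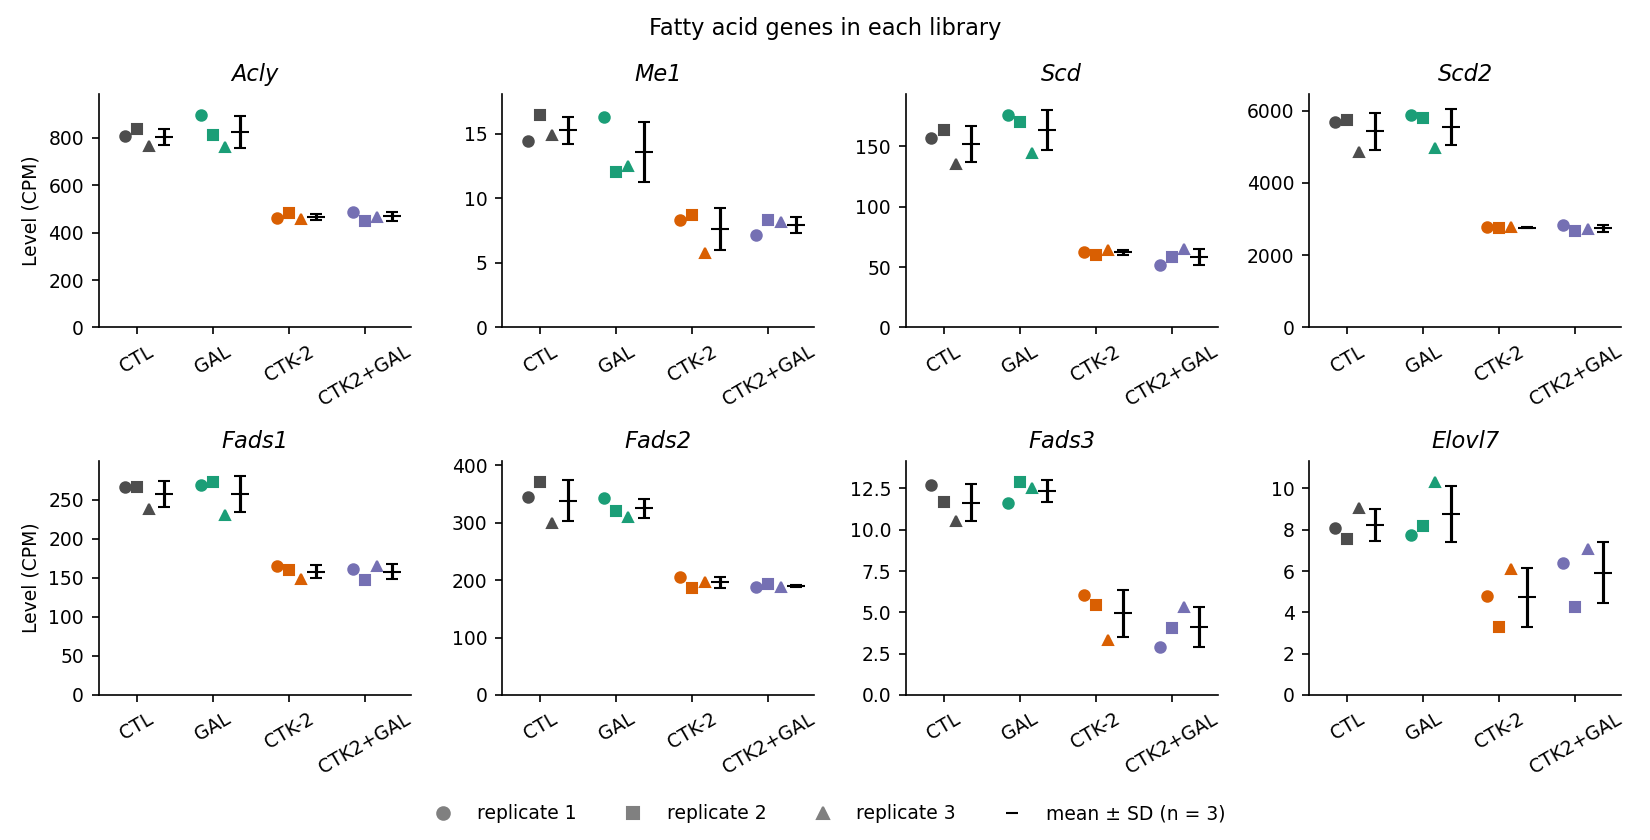
Level of each gene in CPM (vertical axes from 0) in every library of the 4 groups, with 1 point per library and the mean ± SD (n = 3) in black. In all 8 panels the CTK-2 and CTK2+GAL libraries sit below every CTL and GAL library, and the separation is narrowest for Elovl7, at 7.08 against 7.54 CPM. The genes were chosen from CTK-2 versus CTL, so nothing is read from the separation of those groups.

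Acly encodes ATP citrate lyase, which cuts citrate to give cytosolic acetyl-CoA. It lies on chromosome 10 from 85412049 to 85463320 of mRatBN7.2 on the minus strand. Its level was 809, 836 and 766 CPM in the CTL libraries and 898, 812 and 764 CPM in the GAL libraries. With cytokines it was 461, 483 and 458 CPM in CTK-2 and 489, 451 and 465 CPM in CTK2+GAL. The libraries with and without cytokines did not overlap. CTK2+GAL was at 56.8% of GAL, a log2 fold change of -0.81 (standard error 0.063, 95% interval -0.95 to -0.68, adjusted p = 8.44e-09 from edgeR).

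Me1 encodes the cytosolic malic enzyme, a source of NADPH, on chromosome 8 from 87549043 to 87660304. It was low, with 31 to 92 counts per library. Its level was 14.4, 16.5 and 14.9 CPM in CTL, and 16.3, 12.04 and 12.5 CPM in GAL. In CTK-2 it was 8.35, 8.71 and 5.73 CPM, and in CTK2+GAL 7.18, 8.33 and 8.19 CPM. The highest value with cytokines remained below the lowest value without them. The log2 fold change of CTK2+GAL versus GAL was -0.72, with a wide error (standard error 0.17, 95% interval -1.09 to -0.36, adjusted p = 0.00243 from edgeR).

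Scd2 and Scd encode stearoyl-CoA desaturases, which place the first double bond into saturated chains and so give oleic and palmitoleic acid. They lie near each other on chromosome 1. Scd2 spans 243169236 to 243182232 on the plus strand and Scd 243269747 to 243282562 on the minus strand, with 1 annotated gene and 87.5 kb between them. Near-identical stretches of such paralogs lose counts, because pairs that mapped to several places were not counted, so the level of each is uncertain to that extent.

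The promoter windows of the 2 desaturase genes are printed because the genes lie near each other and both decreased. Each window runs from 250 bases before to 50 bases after the gene's start, 5′ to 3′ on the gene's strand, from RefSeq on the build GRCr8, at chr1:253118127-253118426 (plus strand) for Scd2 and chr1:253231682-253231981 (minus strand) for Scd. Capitals mark CCAAT boxes, GC boxes (GGGCGG) and the interferon response core GAAANNGAA, on either strand.
Scd2: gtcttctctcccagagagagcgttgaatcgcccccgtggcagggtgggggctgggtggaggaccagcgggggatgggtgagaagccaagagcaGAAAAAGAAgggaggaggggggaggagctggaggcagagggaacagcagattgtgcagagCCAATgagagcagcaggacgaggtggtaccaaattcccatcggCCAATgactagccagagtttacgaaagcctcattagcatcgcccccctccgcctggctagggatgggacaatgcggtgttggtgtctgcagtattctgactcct
Scd: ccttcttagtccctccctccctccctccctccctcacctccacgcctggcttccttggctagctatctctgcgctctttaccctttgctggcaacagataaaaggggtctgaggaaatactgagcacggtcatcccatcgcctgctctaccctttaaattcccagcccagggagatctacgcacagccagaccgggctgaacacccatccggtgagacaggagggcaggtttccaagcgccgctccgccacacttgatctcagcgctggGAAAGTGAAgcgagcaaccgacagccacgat
The Scd2 window held CCAAT at 2 places and the Scd window at none. Each held 1 match to GAAANNGAA, which 9.71% of 33469 rat promoter windows hold. Among the windows of the 8 genes, only these 2 held it. The longest stretch that the 2 windows shared was 9 bases. A match is a description of the letters and not evidence of a bound site.

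Scd2 had the highest level of the 8 genes per kb of exon in every group. It stood at 5690, 5748 and 4844 CPM in CTL, and at 5885, 5786 and 4974 CPM in GAL. It stood at 2769.8, 2739.8 and 2768 CPM in CTK-2, and at 2837, 2663 and 2726 CPM in CTK2+GAL. Replicate 3 was the lowest in both CTL and GAL, and still far above the libraries with cytokines. As a share of the normalized library size, Scd2 took 0.543% in CTL and 0.276% in CTK-2 (group means). Its log2 fold change in CTK2+GAL versus GAL was -1.02 (standard error 0.062, 95% interval -1.15 to -0.89, adjusted p = 3.96e-10 from edgeR), to 49.4% of the level in GAL.

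Scd was at 157, 163 and 136 CPM in CTL, and at 176, 170 and 145 CPM in GAL. With cytokines it was at 62.9, 59.7 and 63.8 CPM in CTK-2, and at 51.8, 58.7 and 65.2 CPM in CTK2+GAL. Even the lowest library without cytokines, CTL replicate 3, was well above the highest library with them. Its decrease from GAL to CTK2+GAL was a log2 fold change of -1.46 (standard error 0.092, 95% interval -1.65 to -1.27, adjusted p = 5.19e-10 from edgeR), to 36.3% of the level in GAL.

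Fads1, Fads2 and Fads3 encode a family of desaturases that lie next to each other on chromosome 1. Fads1 and Fads2 act on polyunsaturated chains, on the way to arachidonic and docosahexaenoic acid, and Fads3 acts on sphingoid bases. In mRatBN7.2, Fads3 spans 206685894 to 206704769 on the plus strand, Fads2 206708783 to 206748789 on the minus strand and Fads1 206827765 to 206842734 on the plus strand. The gap is 4.0 kb between Fads3 and Fads2 and 79.0 kb between Fads2 and Fads1, with no annotated gene in either. No exon of the 8 genes shared bases with another gene on the same strand.

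The promoter windows of the 3 Fads genes are printed for the same reason, from RefSeq on GRCr8 and with the same marks. They lie at chr1:216110623-216110922 (plus strand) for Fads3, chr1:216171984-216172283 (minus strand) for Fads2 and chr1:216252442-216252741 (plus strand) for Fads1.
Fads3: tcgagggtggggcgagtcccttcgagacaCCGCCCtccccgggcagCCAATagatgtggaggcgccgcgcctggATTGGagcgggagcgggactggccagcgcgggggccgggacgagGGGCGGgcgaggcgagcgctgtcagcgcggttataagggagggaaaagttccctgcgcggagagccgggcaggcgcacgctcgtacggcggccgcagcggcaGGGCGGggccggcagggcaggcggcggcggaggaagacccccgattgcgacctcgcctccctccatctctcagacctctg
Fads2: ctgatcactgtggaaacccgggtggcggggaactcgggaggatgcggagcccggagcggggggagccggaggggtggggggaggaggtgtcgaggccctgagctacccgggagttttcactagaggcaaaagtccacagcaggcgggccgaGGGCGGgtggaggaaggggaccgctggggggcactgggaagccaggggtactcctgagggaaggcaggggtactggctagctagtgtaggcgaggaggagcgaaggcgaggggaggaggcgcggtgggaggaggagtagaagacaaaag
Fads1: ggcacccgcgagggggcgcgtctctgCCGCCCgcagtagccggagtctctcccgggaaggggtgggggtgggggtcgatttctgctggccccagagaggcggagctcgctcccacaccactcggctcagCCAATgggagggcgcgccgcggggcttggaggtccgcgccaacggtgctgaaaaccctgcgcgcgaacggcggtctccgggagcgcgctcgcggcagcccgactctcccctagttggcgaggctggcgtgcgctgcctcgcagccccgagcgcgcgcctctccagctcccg
The GC box was in all 3 windows, and the CCAAT box in those of Fads1 and Fads3. Over the 8 genes, 5 windows held GGGCGG and 4 held CCAAT, beside 33.1% and 37.5% of all 33469 rat windows. Those 5 windows had 67.3% (Fads2) to 81.7% (Me1) of G and C, against a median of 51.7% over all windows. The share of all windows is therefore no like baseline for GGGCGG. A sterol response element (TCACNCCAC), an E-box (CACGTG) and a STAT element (TTCNNNGAA) were searched on both strands as well. None of the 8 windows held one of these letter strings, beside 1.12%, 6.42% and 8.87% of all windows, which says only that the letters are not in these 300 bases. No matches of different motifs overlapped in the windows printed here.

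Fads1 was at 267, 266 and 237 CPM in CTL, and at 268, 272 and 231 CPM in GAL. In CTK-2 it was at 165, 160.03 and 148 CPM, and in CTK2+GAL at 161, 147 and 165 CPM. Here too replicate 3 was the lowest in CTL and in GAL, and no library with cytokines reached the level of one without. The log2 fold change in CTK2+GAL versus GAL was -0.70 (standard error 0.074, 95% interval -0.86 to -0.55, adjusted p = 4.52e-07 from edgeR).

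Fads2 was at 345, 371 and 300.01 CPM in CTL and at 344, 321 and 310.5 CPM in GAL. Its level was 206, 187 and 196 CPM in CTK-2 and 188, 193 and 188 CPM in CTK2+GAL. The CTK2+GAL libraries lay close together, and the groups with and without cytokines did not overlap. Fads2 decreased by a log2 fold change of -0.77 in CTK2+GAL versus GAL (standard error 0.072, 95% interval -0.93 to -0.62, adjusted p = 8.35e-08 from edgeR).

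Fads3 was the least abundant of the 8 genes per kb of exon, with 15 to 77 counts per library. It was at 12.7, 11.7 and 10.5 CPM in CTL, and at 11.6, 12.9 and 12.5 CPM in GAL. In CTK-2 it was at 6.06, 5.44 and 3.33 CPM, and in CTK2+GAL at 2.91, 4.08 and 5.31 CPM. The groups with cytokines varied by up to a coefficient of variation of 29.3%, yet did not reach the others. Its log2 fold change in CTK2+GAL versus GAL was -1.53, with the interval from -2.00 to -1.07 (standard error 0.22, adjusted p = 1.41e-05 from edgeR). That is 34.5% of the level in GAL.

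Elovl7 encodes a condensing enzyme of fatty acid elongation and lies on chromosome 2 from 39789250 to 39856845. It had only 18 to 64 counts per library. Its level was 8.07, 7.54 and 9.07 CPM in CTL, and 7.75, 8.19 and 10.3 CPM in GAL. It was 4.80, 3.27 and 6.10 CPM in CTK-2, and 6.41, 4.25 and 7.08 CPM in CTK2+GAL. Every library with cytokines was below every library without them, but CTK2+GAL replicate 3 came close to GAL replicate 1, the lowest of the GAL libraries. The log2 fold change of CTK2+GAL versus GAL was -0.56 (standard error 0.23, 95% interval -1.04 to -0.09, adjusted p = 0.0559 from edgeR), so the gene was not called. Without CTK2+GAL replicate 3 it was called, at -0.75 (adjusted p = 0.0374 from edgeR), and without CTK2+GAL replicate 2 it was at -0.39.

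The same 8 genes in CTK-2 versus CTL had been part of the choice of genes, and their values are given without a test. Each gene had all CTK-2 libraries below all CTL libraries, and each passed the thresholds. The corresponding shares of all genes tested were 23.8% and 5.79%, but the choice of the genes fixed these counts and nothing is read from them. The log2 fold change was -0.78 for Acly and -1.004 for Me1. For the desaturases it was -1.29 for Scd, -0.98 for Scd2, -0.70 for Fads1, -0.79 for Fads2 and -1.24 for Fads3. Elovl7 was at -0.81, and without CTK-2 replicate 2 it was at -0.59 and no longer passed. The 2 comparisons of cytokines have no library in common. They are not taken as fully separate sets, since the CTL and GAL libraries of the same replicate number deviated together over the more abundant genes. Not every library, however, correlated best with the one of its own number.

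**Figure D2:**
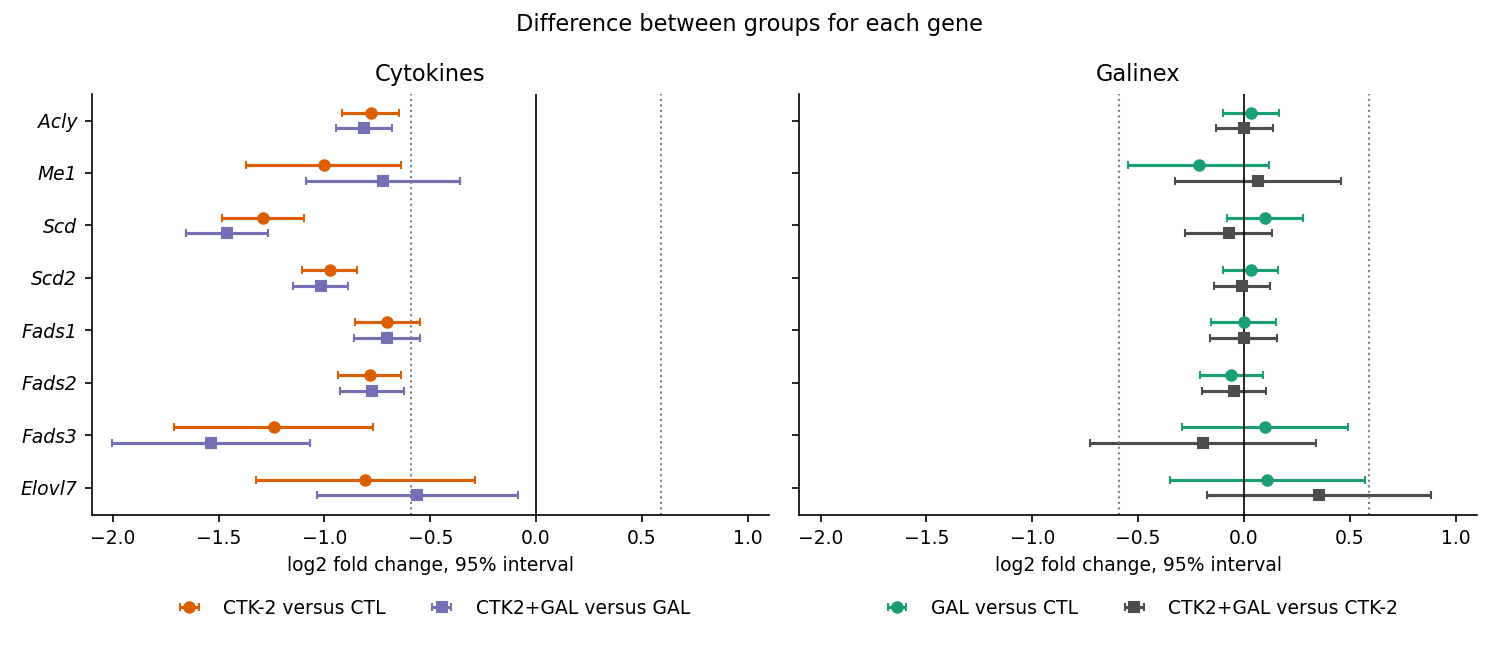
Log2 fold change of each gene with its 95% interval from edgeR's quasi-likelihood fit, for the cytokine comparisons (left) and the galinex comparisons (right). Dotted lines mark the threshold of 0.59 in either direction. The intervals of CTK2+GAL versus GAL all lie below 0, from -2.00 to -0.09, while every galinex interval includes 0. Those of CTK-2 versus CTL are a description only, since the genes were chosen from that comparison.

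No difference between galinex alone and CTL passed the test for these genes. In GAL versus CTL 0 of the 8 genes were called, as were 0% of all genes tested, and 574 genes (0 of the 8) had an unadjusted p under 0.05. DESeq2 called 0 of the 8 as well. The libraries of the 2 groups overlapped for all 8 genes, where 8.32% of all genes tested did not overlap. The log2 fold changes lay between -0.21 (Me1) and 0.11 (Elovl7). The narrowest limits were those of the abundant genes. Scd2 was at 0.03 (95% interval -0.10 to 0.16), Acly at 0.04 (-0.10 to 0.17), Fads1 at 0.00 (-0.15 to 0.15) and Fads2 at -0.06 (-0.21 to 0.09). Scd was at 0.10 (-0.08 to 0.28). Compared within same-numbered libraries, Scd and Scd2 were higher in GAL in 3 of 3 pairs and the other 6 genes in 1 or 2 of 3, and with these pairs as a block neither was called (0.10, adjusted p = 0.872, and 0.03, adjusted p = 0.956, from edgeR). For the low genes Me1 (-0.55 to 0.12), Fads3 (-0.29 to 0.49) and Elovl7 (-0.35 to 0.57) the intervals left room for changes of about the size of the threshold.

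Whether galinex raised these genes again after cytokines is the question of CTK2+GAL versus CTK-2. Here, too, 0 of the 8 genes and 0% of all genes tested were called by edgeR, DESeq2 called 0 of the 8, and 545 genes (0 of the 8) had an unadjusted p under 0.05. All 8 genes had overlapping libraries, beside 11.5% of all genes tested without overlap. Scd2 was at 50.8% of CTL in CTK-2, a value from the comparison used to choose the genes. The addition of galinex left Scd2 at 99.4% of CTK-2, with a 95% interval from 90.8% to 109%. Acly was at 0.00 on the log2 scale (-0.13 to 0.14), Fads1 at 0.00 (-0.16 to 0.16), Fads2 at -0.05 (-0.20 to 0.10) and Scd at -0.07 (-0.28 to 0.14). These intervals lie inside the threshold of 0.59 in both directions. Elovl7 had the highest value, 0.36 (-0.17 to 0.89), and Fads3 the lowest, -0.19 (-0.73 to 0.34), both with few counts. Me1 was at 0.07 (-0.32 to 0.46).

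The difference between the cytokine effect with and without galinex was tested by the interaction term. It called 0 of the 8 genes and 0% of all genes tested, and 376 genes (0 of the 8) had an unadjusted p under 0.05. DESeq2 called 0 of the 8. The interaction was smallest in Fads1 (0.00, 95% interval -0.22 to 0.22) and Fads2 (0.01, -0.20 to 0.22). It was widest in Fads3 (-0.29, -0.96 to 0.37), Me1 (0.28, -0.23 to 0.80) and Elovl7 (0.25, -0.46 to 0.95). The comparisons of galinex share libraries with those of cytokines, so they do not add independent evidence on the same genes. Their reference groups, CTL and CTK-2, are also those from which the genes were chosen. Whether that choice shifted the galinex and interaction values was not tested.

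The order of the 8 genes by level per length was the same in the 4 groups. From high to low it ran Scd2, Acly, Fads2, Fads1, Scd, Elovl7, Me1 and Fads3. In CTL, Scd2 was at 1102 ± 103 CPM per kb of exon, Acly at 176 ± 7.66, Fads2 at 104 ± 10.95 and Fads1 at 73.9 ± 4.81 (SD, n = 3). Scd followed at 32.4 ± 3.12, Elovl7 at 6.25 ± 0.588, Me1 at 4.61 ± 0.323 and Fads3 at 2.99 ± 0.281 CPM per kb. Neighbours in this order had libraries that did not overlap, except Elovl7 and Me1 in CTK-2 (3.59 ± 1.08 and 2.29 ± 0.490 CPM per kb). The division by length takes reads to fall along the whole transcript. The library kit is not given in the sources used here.

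**Figure D3:**
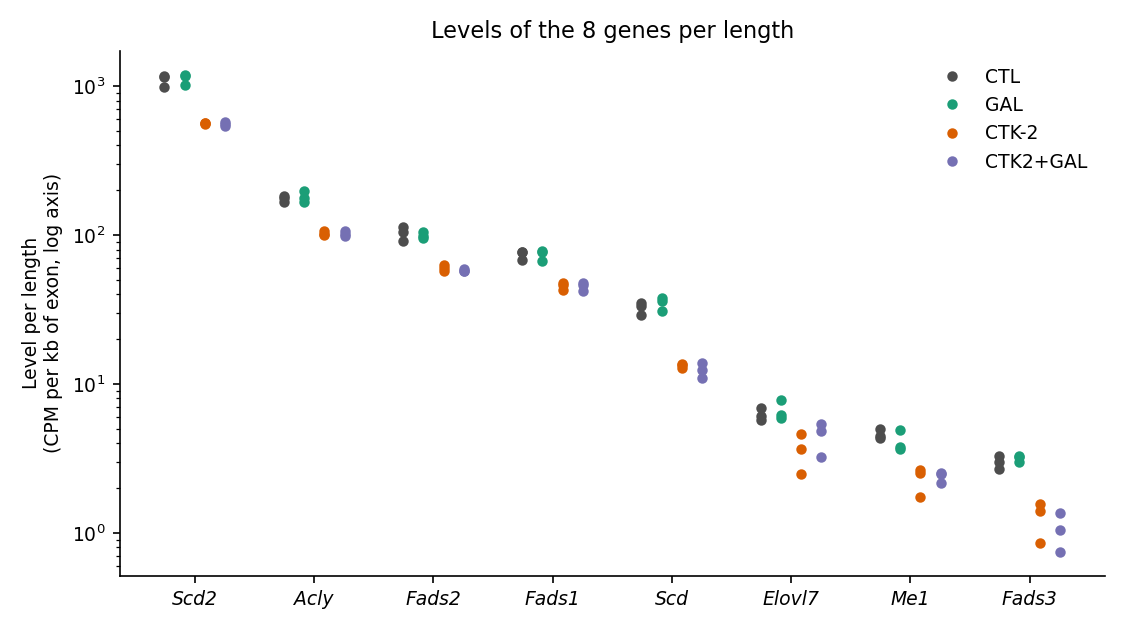
Level of each gene per length, in CPM per kb of exon on a log axis, with 1 point for each library and the genes ordered by their mean in CTL. Scd2 lies at 541 CPM per kb or more in every library and Fads3 at 3.30 or less, and the order of the group means is the same in the 4 groups.

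Pairs of related genes of the pathway were compared as ratios within each library, which do not depend on library size. Scd counts were 2.80% ± 0.040 of Scd2 counts in CTL and 2.95% ± 0.046 in GAL (SD, n = 3). They were 2.25% ± 0.065 in CTK-2 and 2.14% ± 0.29 in CTK2+GAL. By library the ratio was 2.76%, 2.84% and 2.80% in CTL, 3.00%, 2.95% and 2.91% in GAL, 2.27%, 2.18% and 2.31% in CTK-2, and 1.83%, 2.21% and 2.39% in CTK2+GAL. All 6 libraries with cytokines were below all 6 without, and the 3 GAL libraries were above the 3 CTL libraries, a difference that was not tested. On the log2 scale the ratio was lower by 0.47 in CTK2+GAL than in GAL, with p = 0.1 in a two-sided exact permutation test, the smallest p that 3 libraries against 3 allow, and 0.3 after adjustment over the 3 ratios. The ratio of Fads1 to Fads2 was 79.0% ± 5.30 in GAL and 83.1% ± 6.06 in CTK2+GAL (SD, n = 3, exact permutation p = 0.4, adjusted p = 0.6). That of Me1 to Acly was 1.66% ± 0.170 and 1.71% ± 0.197 (SD, n = 3, exact permutation p = 0.8, adjusted p = 0.8). These libraries overlapped for both ratios.

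**Figure D4:**
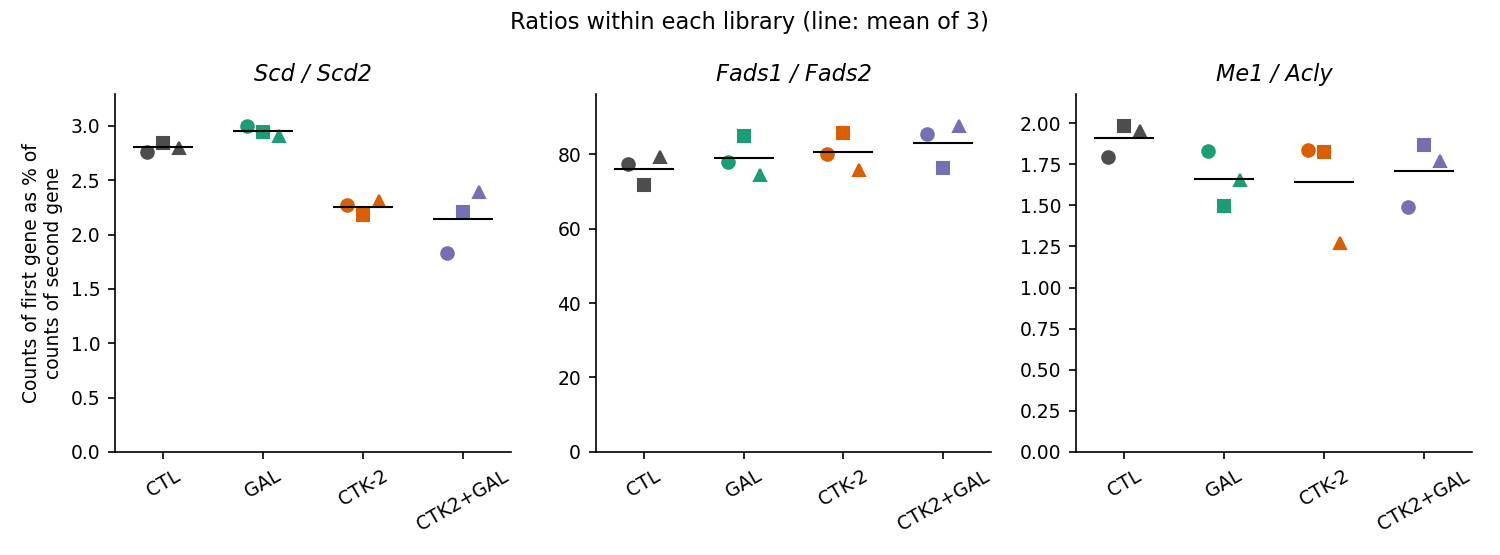
Ratio of the counts of 2 related genes in each library, in percent (vertical axes from 0). A line marks the mean of the 3 libraries of a group, and circles, squares and triangles are replicates 1, 2 and 3. The Scd to Scd2 ratio is 2.76% to 3.00% without cytokines and 1.83% to 2.39% with them, while the groups overlap in the other panels.

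The libraries without cytokines were not equal among themselves for these genes. CTL replicate 3 was the lowest CTL library for 6 of the 8 genes, with Me1 and Elovl7 the exceptions. GAL replicate 3 was the lowest GAL library for 5 of the 8, with Me1, Fads3 and Elovl7 the exceptions. These are the libraries with more microglial marker RNA. With both left out, the log2 fold changes in CTK2+GAL versus GAL were -1.54 for Scd, -1.53 for Fads3, -1.09 for Scd2, -0.87 for Acly, -0.80 for Fads2, -0.78 for Fads1, -0.76 for Me1 and -0.41 for Elovl7. The coefficient of variation of Scd2 was 9.32% in CTL and 9.01% in GAL, against 0.610% in CTK-2 and 3.20% in CTK2+GAL.

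A wider list of the pathway and its regulators held 55 symbols, of which 13 had a symbol in the counts, the 8 genes and 5 more. In CTK2+GAL versus GAL 10 of the 13 were called lower and 2 higher, beside 5.74% and 11.7% of all genes tested. In CTK-2 versus CTL 11 were lower and 2 higher, counts that were fixed in advance because a symbol comes only from the study's list of genes called there. The same choice bears on CTK2+GAL versus GAL, so the shares of all genes are no like baseline for the counts there. Idh1, the cytosolic isocitrate dehydrogenase that gives NADPH, fell from 279 ± 20.5 CPM in GAL to 160 ± 9.92 CPM in CTK2+GAL (SD, n = 3), a log2 fold change of -0.80. Hacd1, a dehydratase of the elongation cycle, fell by 1.24 on the log2 scale, from 24.1 ± 5.45 to 10.3 ± 1.19 CPM (SD, n = 3). Insig1, which holds the SREBP complex in the endoplasmic reticulum and is itself an SREBP target, fell by 1.03 on that scale, from 382 ± 12.4 to 187 ± 15.0 CPM (SD, n = 3). The genes that rose were those of nuclear receptors of lipids. Nr1h2, which encodes LXR-beta, rose from 49.7 ± 5.99 to 95.1 ± 0.341 CPM (SD, n = 3, log2 fold change 0.96), and Ppard, which encodes PPAR-delta, from 47.3 ± 7.36 to 118 ± 7.56 CPM (SD, n = 3, log2 fold change 1.35). The adjusted p of these 5 genes ran from 3.19e-10 (Insig1) to 2.72e-05 (Hacd1) in edgeR. None of them was called in a comparison of galinex. The genes of the list's synthesis step, among them Fasn and Acaca, had no symbol here and were not analysed here, and neither were Srebf1 and Srebf2.

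Among the 5 genes outside this list whose profile over the 12 libraries was closest to the mean profile of the 8 genes were Eif2b1, Dhcr7, Tgfa and Tspan3. The distance was the root mean square difference of centred log2 CPM, and it ran from 0.0483 (Eif2b1) to 0.0611 (Tspan3) among 1261 genes with a symbol and a mean count of at least 50. The members lay between 0.0736 (Scd2) and 0.338 (Fads3) from the mean that they themselves make. Dhcr7 encodes a reductase at the end of cholesterol synthesis. It was at 258 ± 11.1 CPM in CTL, 273 ± 20.4 in GAL, 137 ± 1.63 in CTK-2 and 142 ± 8.89 in CTK2+GAL (SD, n = 3). Eif2b1, a subunit of a translation initiation factor, was at 135 ± 10.0, 143 ± 7.83, 73.3 ± 3.602 and 68.9 ± 4.89 CPM in the same groups (SD, n = 3). The libraries share depth and normalization, and every gene with a symbol had been called in CTK-2 versus CTL.

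Marker levels of other cell types and stages also differed with cytokines. As a marker has a symbol only if the study had called it in CTK-2 versus CTL, its difference there was fixed by that choice, and markers without a symbol were not analysed here. The summed level of 5 of 8 oligodendrocyte markers with a symbol (Mag, Mog, Cldn11, Ugt8 and Tspan2) was 1394 to 1549 CPM in CTL and 1496 to 1540.0 CPM in GAL, and 598 to 647 CPM in CTK-2 and 618 to 686 CPM in CTK2+GAL. All 5 were called lower in CTK2+GAL versus GAL, beside 5.74% of all genes tested. The choice of symbols bears on this comparison too, so shares of all genes are no like baseline for the marker counts. The 3 of 9 OPC markers with a symbol went the other way, from 2232 to 2475 CPM in CTL to 3944 to 4216 CPM in CTK-2. Their sum was 2310 to 2496 CPM in GAL and 3921 to 4221 CPM in CTK2+GAL, and all 3 were called higher there. The 4 of 11 microglial markers with a symbol summed to 2.23 to 9.71 CPM in CTL and 18.5 to 24.2 CPM in CTK-2, and to 3.10 to 10.5 CPM in GAL and 19.6 to 20.8 CPM in CTK2+GAL. In CTK2+GAL versus GAL 3 of these 4 were called higher, beside 11.7% of all genes tested. Csf1r was not called (log2 fold change 0.61, adjusted p = 0.396 from edgeR). Ptprc had 0 counts in 3 of the libraries without cytokines. The astrocyte marker Aldoc was lower with cytokines, and the neuronal marker Tubb3 and the fibroblast marker Col1a2 (at most 7.95 CPM) were higher, the only members of their lists with a symbol. The part of these cell types in the decrease of the fatty acid genes was not tested.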

How the data were processed

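RNA was sequenced from 12 rat OPC cultures, 3 per group. The authors deposited raw counts, whole read pairs per gene. The authors name FastQC and STAR, and per the file headers the counts came from featureCounts 2.0.0 on Ensembl release 112 of mRatBN7.2, with multiply mapped pairs left out. No filter or log scale had been applied.

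The members, lists and tests were chosen with earlier results of these data known. Symbols came from matching the mean and log2 fold change in the study's supplementary list of called genes to the counts, which gave 1 gene for 1747 of 1786 entries, of which 99.94% of 1730 pairs lay on the same chromosome in both annotations. The list's own fold changes were used for this match alone and are not reported. Genes outside it have no symbol here.

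The model was edgeR 4.0.16 in R 4.3.3 (TMM, quasi-likelihood test, 1 mean per group, mean counts of 5 or more). Calls needed a Benjamini-Hochberg adjusted p no higher than 0.05 and a log2 fold change of 0.59 or more in size. Standard errors and 95% intervals are Wald values from that fit and cover the spread between libraries. Ratios added 0.5 to each count. Named genes were the 8 members, the called genes of the wider list and the 5 genes with the closest profile. One marker and one of the latter are not reported here. Alternatives were DESeq2 1.42.0, its size factors, total counts, other filters, no fold threshold, the compared groups alone, a replicate block and each replicate left out. Over the more abundant genes, deviations from the group means of same-numbered CTL and GAL libraries correlated at 0.45, 0.49 and 0.81, all over 0.1. The last value is that of the replicate 3 libraries. Not every library correlated best with the one of its own number. The printed fit has no block, and the fit with CTL and GAL numbers as pairs is an alternative.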

Additional observations from a re-analysis of the deposited data

How the results depend on the processing

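Of the 8 genes, 7 or 8 were called in CTK2+GAL versus GAL and 0 in GAL versus CTL, CTK2+GAL versus CTK-2 and the interaction under all 24 alternative settings (23 for the interaction), and Elovl7 was the only gene whose call changed in them. In CTK2+GAL versus GAL it was called with the replicate block, at -0.60 (adjusted p = 0.0192 from edgeR) and 8 of 8 genes, though GAL and CTK2+GAL share only a number, and its adjusted p ran from 0.0192 to 0.244 over the settings. The CTL and GAL replicate block and the leaving out of pairs of libraries (CTL 3 with GAL 1, CTL 3 with GAL 3) were chosen after seeing the data. The block changed no other call, with 0 of 8 in GAL versus CTL. Values near 0 changed sign when libraries were left out, and the cause was not tested. In GAL versus CTL Acly ran from -0.06 to 0.09, Scd from -0.03 to 0.19, Scd2 from -0.09 to 0.10, Elovl7 from -0.04 to 0.24 and Fads2 from -0.18 to 0.01. In CTK2+GAL versus CTK-2 Me1 ran from -0.10 to 0.18 and Scd2 from -0.03 to 0.01. In the interaction Acly ran from -0.08 to 0.06, Scd2 from -0.11 to 0.08 and Fads2 from -0.06 to 0.13. The log2 ratio of Me1 to Acly differed by 0.04 between CTK2+GAL and GAL, and by -0.03 to 0.14 with a library left out. Without the fold threshold 5290 genes were called in CTK2+GAL versus GAL and 5213 in CTK-2 versus CTL. In GAL versus CTL 2 genes were called without the filter on low counts and 4 without CTL 3 and GAL 3, and in the interaction 4 and 6, none of them among the 8. The counts of Me1, Elovl7 and Fads3 limit their precision.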
